A study of Arabidopsis thaliana with 4 samples.

Results

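The TRM genes of Arabidopsis thaliana were compared between apetala3 and wild-type inflorescences. They were taken by symbol, as genes called TRM with a number and measured on at least 3 arrays by a probe that the platform annotation pairs with a single gene. The rule gave 7 genes among 5303 named genes tested. Their reference names show that 2 unrelated meanings share the symbol. TRM21, TRM22, TRM23, TRM26, TRM30 and TRM34 are TON1 Recruiting Motif genes, whereas TRM82 stands for tRNA modification. The label of a microtubule and organ shape family therefore holds for 6 of the 7, and TRM82 is described apart.

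TON1 Recruiting Motif proteins are plant proteins that bind TON1, a small protein related to centrosomal proteins of animals. Several of them sit on microtubules and bring TON1 together with a protein phosphatase 2A complex that contains TON2, also called FASS. That complex organises the cortical microtubules and the preprophase band, the ring of microtubules that marks where a plant cell will divide. The founding members LONGIFOLIA1 and LONGIFOLIA2 promote the lengthening of leaf cells, and in tomato a TRM protein acts together with OVATE in setting fruit shape.

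APETALA3 is the MADS-box transcription factor needed for petals and stamens. In its absence flowers make sepals and carpels in their places. Total RNA of apetala3 inflorescences and of wild-type inflorescences was hybridised together on each of 4 two-channel long-oligonucleotide arrays, with apetala3 in channel 1 on arrays 1 and 3 and in channel 2 on arrays 2 and 4. The allele, the strain, the plants' age and whether the arrays came from separate plants were not given in the sources used here, so p-values measure the spread between arrays only, which may be technical. Values below read as the level in apetala3 over that in wild type, on the log2 scale. Since no label says which channel is the numerator, this direction is only called likely, because genes of the tapetum and pollen wall are then lower in the mutant, which lacks stamens, and with the sign turned every higher value reads as lower.

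After the signs were turned the arrays correlated across genes with a Pearson r of 0.629 to 0.818, lowest for array 4 with array 3. The median of all 25588 genes and unnamed probes tested was 0.115, so a value is also given relative to the median of its array, which was 0.11, 0.12, 0.10 and 0.07 on arrays 1 to 4. Spots that carry no gene had medians of 0.76 on array 1, 0.56 on array 2, -0.27 on array 3 and 0.84 on array 4, and their part in the small increases below was not tested. Some organ markers moved as well. Of 6 measured genes in a marker list for tapetum and pollen wall 5 were lower, and the direction called likely above rests on such genes. The 5 lay between -0.49 for SPL and -4.10 for ATA27, with SWEET8, a sugar transporter, at -3.97, and EMS1 was at 0.07. With limit values kept ATA27 was at -2.45 and not past the threshold (limma adjusted p = 0.0861). The SPL call was lost without array 1, 2 or 3 (limma adjusted p = 0.140, 0.0908 and 0.0987). The pollen tubulin TUA1 was at -0.44, while 2 probes listing several pollen markers were both lower, with a median of -4.56. The carpel factor CES was at 1.85 (limma adjusted p = 0.00117). The ovule gene INO, at 0.20, was not past the threshold (limma adjusted p = 0.243). Of 4 probes listing several carpel and ovule markers 2 were higher, and their median was 0.55. The photosystem genes PSBW, PSBY, PSAN and PSB27 lay between 0.14 and 0.39 and were not past the threshold either (limma adjusted p = 0.209 to 0.452). PSBW and PSBY had opposite signs in the channel orientations. No petal marker was measured by name. The part of these organ differences in the TRM values was not tested, and in whole inflorescences a change in the number of cells of a type cannot be told apart from a change in RNA per cell.

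TRM23 and TRM34 rose in apetala3, by less than 2-fold, and no TRM gene fell. The other 5 genes did not pass the test, a limma adjusted p under 0.05, although all 7 means were above 0 and above the 0.115 of all genes and probes. Means above 0 were common among all genes and probes too, since their median was itself above 0, and their share was not counted. On all 4 arrays 4 of the 7 were above 0, against 30.5% of genes and probes measured on 4 arrays. Among all genes and probes 18.5% passed the test, with 8.43% higher and 10.1% lower, and among the named genes 17.5%, with 9.09% higher and 8.41% lower, so the 2 of 7 stand beside a background of that size. After centring each array on its own median the same 2 genes passed, against 15.5% of all genes and probes, with 4.16% higher and 11.4% lower. At an unadjusted p under 0.05 there were 4 of the 7 genes, with 0 lower, against 36.7% of all genes and probes. The means ran from 0.15 to 0.80 with a median of 0.26, and for the 6 TON1 Recruiting Motif genes alone the median was 0.34.

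**Figure D1:**
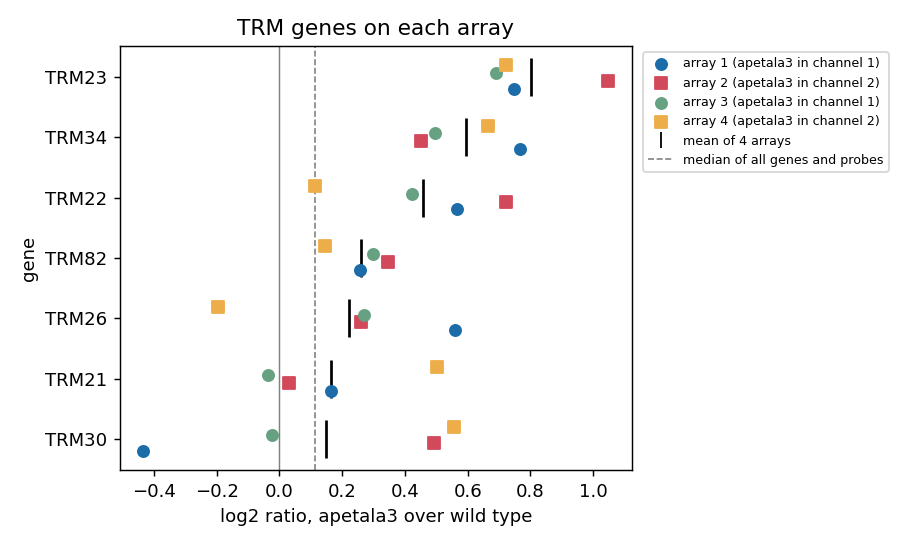
Log2 ratios of apetala3 over wild type (horizontal axis) of the 7 TRM genes (vertical axis) on each of 4 arrays, with circles for arrays holding apetala3 in channel 1, squares for channel 2, black bars for the means and a dashed line for the median of all genes and probes (0.115). TRM23 and TRM34 lie at or above 0.45 on each array, while TRM30 runs from -0.43 to 0.56.

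TRM23 (AT4G25430) was the highest. Its log2 ratios were 0.75, 1.05, 0.69 and 0.72 on arrays 1 to 4. All 4 were above 0, arrays 1, 3 and 4 lay within 0.06 of each other, and array 2 stood above them, a gap of a kind seen in 5.75% of genes and probes. The mean was 0.80 ± 0.11 (SE, n = 4 arrays, limma adjusted p = 0.00703), a 1.74-fold increase with a 95% interval of 0.54 to 1.07 on the log2 scale. Relative to the array medians TRM23 was higher by 0.64, 0.93, 0.59 and 0.65. In the fit with centred arrays it was at 0.70 (limma adjusted p = 0.00996). On array 3, where the empty spots had a median of -0.27, TRM23 stood at 0.69, and on array 2 at 1.05 against 0.56. On arrays 1 and 4 TRM23 was below the empty-spot medians, at 0.75 against 0.76 and 0.72 against 0.84. The part of the empty-spot signal in these values was not tested. Of the named genes 157 had a higher mean.

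TRM34 (AT3G24630) came next. Its values were 0.77, 0.45, 0.50 and 0.66 on arrays 1 to 4, all above 0, with arrays 1 and 4 the higher. On arrays 2 and 4 TRM34 was below the empty-spot medians, at 0.45 against 0.56 and 0.66 against 0.84. On array 1 it stood at 0.77 against 0.76, and on array 3 at 0.50 against -0.27. The part of the empty-spot signal in the TRM34 values was not tested either. The mean was 0.59 ± 0.10 (SE, n = 4 arrays, limma adjusted p = 0.0166), a 1.51-fold increase. In the fit with centred arrays it was 0.49 (limma adjusted p = 0.0307). The call was lost without array 1, at 0.54 (limma adjusted p = 0.0852), and without limma's moderation of the variance (adjusted p = 0.0589).

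TRM22 (AT1G67040) had values of 0.57, 0.72, 0.42 and 0.11 on arrays 1 to 4. All were above 0, but array 4 was close to its array's median, only 0.04 above it. The mean of 0.46 ± 0.13 (SE, n = 4 arrays) did not pass the test (limma adjusted p = 0.0619), with a 95% interval of 0.14 to 0.78. It passed without array 4, at 0.57 (limma adjusted p = 0.0342), and with arrays weighted by their agreement, at 0.51 (limma adjusted p = 0.0270), where array 4 had the lowest weight, 0.61, and array 1 the highest, 1.96.

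TRM26 (AT2G17550) differed more between arrays, with 0.56, 0.26, 0.27 and -0.20 on arrays 1 to 4. Array 1 was the highest and array 4 fell on the other side of 0. The mean was 0.22 with an SD of 0.31 (n = 4 arrays, limma adjusted p = 0.304), and its 95% interval of -0.13 to 0.58 includes both 0 and the mean of TRM22. TRM21 (AT5G43880) had 0.16, 0.03, -0.04 and 0.50 on the 4 arrays, so that array 4 was high and the other 3 were near 0. Its mean was 0.17 with an SD of 0.24 (n = 4 arrays, limma adjusted p = 0.369) and a 95% interval of -0.14 to 0.47. Relative to the array medians TRM21 was above on 2 arrays and below on 2.

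TRM30 (AT5G42710) split by the channel that held the mutant RNA. Its values were -0.43 and -0.02 on arrays 1 and 3, with apetala3 in channel 1, and 0.49 and 0.56 on arrays 2 and 4, with it in channel 2. The mean of 0.15 with an SD of 0.47 (n = 4 arrays, limma adjusted p = 0.604) thus averaged values of opposite sign, and its 95% interval ran from -0.33 to 0.63. The difference between the orientations was 0.75 ± 0.23 (SE, 2 arrays against 2), with a 95% interval of 0.15 to 1.36. It did not pass the test over all genes (limma adjusted p = 0.705), in which 0 of 25588 genes and probes passed, with 6.78% at an unadjusted p under 0.05. Without moderation of the variance 0 passed as well. Opposite signs on all arrays of the orientations, as for TRM30, were found for 8.28% of genes and probes measured on all 4 arrays.

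The other 6 genes were above 0 in the mean of either orientation. Their differences between orientations, channel 2 minus channel 1, ran from -0.38 for TRM26 to 0.20 for TRM21. For TRM23 it was 0.17, with a 95% interval of -0.39 to 0.73, and for TRM34 -0.07, with an interval of -0.64 to 0.49. Fitted with a constant channel effect, TRM23 and TRM34 still passed the test (limma adjusted p = 0.0158 and 0.0338).

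**Figure D2:**
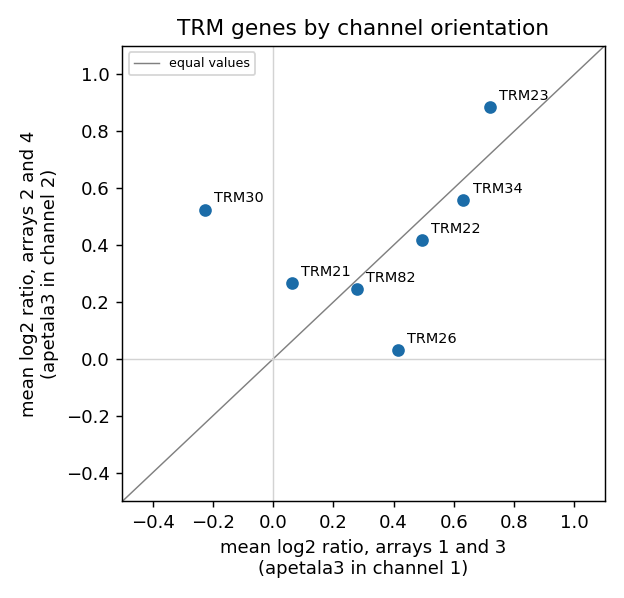
Mean log2 ratio of each TRM gene on arrays 1 and 3, with apetala3 in channel 1 (horizontal axis), against that on arrays 2 and 4, with it in channel 2 (vertical axis); each point is 1 gene and the grey line marks equal values. TRM30 is the farthest from the line, at -0.23 and 0.52, while TRM34, TRM22 and TRM82 lie within 0.08 of equal values.

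TRM82 (AT1G03110), the gene named for tRNA modification, is the counterpart by name of a yeast protein that forms a tRNA guanosine methyltransferase with a catalytic partner. It was measured by 2 probes of its own. The first had 0.32, 0.39, 0.31 and 0.06 on arrays 1 to 4 and the second 0.19, 0.30, 0.29 and 0.23. The probes had like means, at 0.27 and 0.25, and all 8 values were above 0. Their average of 0.26 ± 0.09 (SE, n = 4 arrays) did not pass the test (limma adjusted p = 0.103), and it stood 0.16 above the array medians. The SD between arrays was 0.09, the smallest of the 7 genes. A pair of further probes that list TRM82 with AT1G62020 and AT2G21390 stood at 0.48 (limma adjusted p = 0.0235) and 0.11 (limma adjusted p = 0.458). The first was no longer past the threshold in the fit with centred arrays, at 0.38 (limma adjusted p = 0.0501), and which of the listed genes they measured is not known.

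The order of the means was TRM23, TRM34, TRM22, TRM82, TRM26, TRM21 and TRM30. Of the 6 pairs of neighbours in this order, only TRM22 and TRM82 differed by more than the SD of their difference, by 0.20 with an SD of 0.18 (n = 4 arrays), and TRM22 was the higher on 3 of 4. TRM23 exceeded TRM34 by 0.21 with an SD of 0.27 (n = 4 arrays) and was the higher on 3 of 4, and TRM34 exceeded TRM22 by 0.14 with an SD of 0.34. Between the ends the spread was smaller than the difference. TRM23 exceeded TRM30 by 0.65 with an SD of 0.42 and TRM21 by 0.64 with an SD of 0.33, on 4 of 4 arrays each. These differences were not tested, since the smallest p of an exact sign-flip test with 4 arrays is 0.125.

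Placed among all genes and probes on each array, TRM23 ranked between the percentiles 92.5 and 96.1. TRM34 ranked between 77.6 and 94.1 and TRM22 between 55.0 and 90.2. TRM82 kept to a narrow band between 58.4 and 70.0. TRM26, TRM21 and TRM30 crossed the middle, and TRM30 ranged from 15.2 on array 1 to 90.3 on array 4. On all 4 arrays TRM23, TRM34, TRM22 and TRM82 were above the array median, 4 of 7 genes against 19.5% of all genes and probes measured on 4 arrays. The median of the 7 genes was above the array median by 0.45, 0.33, 0.20 and 0.43 on arrays 1 to 4. For the 6 TON1 Recruiting Motif genes, without TRM82, it was above by 0.45, 0.35, 0.24 and 0.46.

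**Figure D3:**
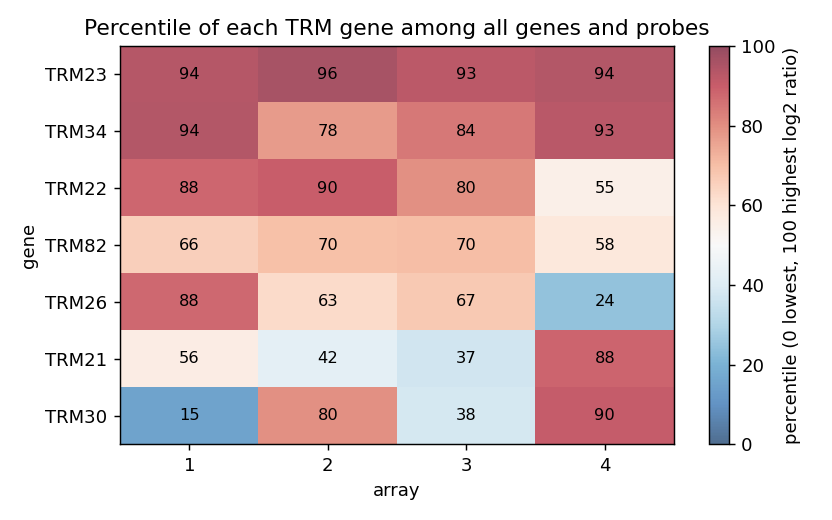
Percentile of each TRM gene (vertical axis) by its log2 ratio among all genes and probes tested, on arrays 1 to 4 (horizontal axis); red is above and blue below the middle, and the numbers are rounded percentiles. The TRM23 row stays above 92 on each array, whereas TRM30 runs from 15.2 to 90.3.

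A further 8 TON1 Recruiting Motif genes of the 34 in the reference table were listed only on probes that name several genes. Of these, TRM15, TRM18, TRM19, TRM24, TRM25, TRM27, TRM28 and TRM33 appear on 6 probes that list TRM genes alone, 1 of which also lists TRM23. The other 20, among them LNG1, LNG2, TRM6, TRM7 and TRM8, were paired with no probe in the annotation used and were not analysed here. The values of the 6 probes cannot be assigned to a single gene. Of the 6, 2 rose and 0 fell, where 8.43% of all genes and probes were higher and 10.1% lower. At an unadjusted p under 0.05, which 36.7% of all genes and probes reached in either direction, 0 of the 6 were lower too. Their median was 0.27.

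The probe listing TRM25 and TRM24 gave 0.57, 0.60, 0.58 and 0.69 on arrays 1 to 4. With the probes of TRM82 averaged, these 4 values had the smallest SD of any TRM gene or probe, 0.05. The mean was 0.61 ± 0.09 (SE, n = 4 arrays, limma adjusted p = 0.00994), close to that of TRM34, and 0.51 in the fit with centred arrays (limma adjusted p = 0.0183). Without array 1 it was at 0.62 but did not pass the test (limma adjusted p = 0.0552).

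The probe that lists TRM25, TRM24 and TRM23 together gave 0.35, 0.51, 0.58 and -0.14. It was above 0 on arrays 1 to 3 and below on array 4, and the mean of 0.33 ± 0.15 (SE, n = 4 arrays) did not pass the test (limma adjusted p = 0.172). On array 4 TRM23's own probe was at 0.72 and the probe listing TRM25 and TRM24 at 0.69, so the probes that share these genes were apart there. Without array 4 the 3-gene probe was at 0.48 (limma adjusted p = 0.0453).

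TRM28 and TRM27 share a pair of probes that disagreed. The first gave 0.54, 0.51, 0.59 and 0.22 on arrays 1 to 4, with a mean of 0.47 ± 0.11 (SE, n = 4 arrays, limma adjusted p = 0.0368). The second gave -0.03, 0.17, -0.49 and -0.75, with a mean of -0.27 ± 0.18 (SE, n = 4 arrays, limma adjusted p = 0.308). The first probe lay above the second on each array. Its call was lost with the arrays centred on their medians (0.36, limma adjusted p = 0.0709), with a constant channel effect (limma adjusted p = 0.0513) and without array 1, 2 or 3 (limma adjusted p = 0.147, 0.121 and 0.107).

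The remaining probes were not past the threshold. The probe listing TRM18 and TRM19 had a mean of 0.22 and the probe listing TRM33 and TRM15 one of 0.19, with limma adjusted p of 0.238 and 0.320. A probe that lists TRM18 with AT2G39440 was at 0.39 (limma adjusted p = 0.0666). Of the 7 genes and 6 probes together, 7 had their lowest value on array 4, as did 30.9% of all genes and probes measured on 4 arrays.

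**Figure D4:**
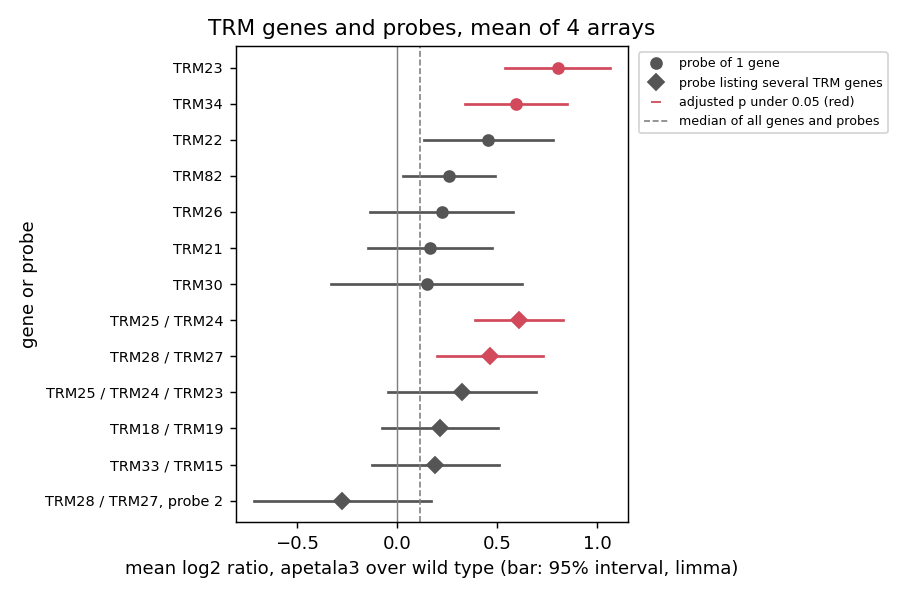
Mean log2 ratio over 4 arrays (horizontal axis) of the 7 TRM genes (circles) and of 6 probes that list several TRM genes (diamonds), with limma's 95% intervals as bars, those past the threshold in red and the overall median dashed. TRM23, TRM34, the TRM25 and TRM24 probe and the first probe of TRM28 and TRM27 are past it, and the second probe of TRM28 and TRM27 is the only mean below 0, at -0.27.

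The proteins that TRM proteins work with were mostly not measured by name. None of the 10 partner genes in the list of TON1, TON2 and protein phosphatase 2A subunits, and none of the OVATE family, the kinesins or the mitotic cell division genes, had a probe of its own among those tested. A pair of probes listing mitotic genes alone had a median of -0.15 and did not pass the test. Of the tubulins, the subunits of microtubules, 4 were measured. TUA1, an alpha-tubulin of pollen, had -0.47, -0.48, -0.61 and -0.22 on arrays 1 to 4, all below 0, and fell by 0.44 ± 0.11 (SE, n = 4 arrays, limma adjusted p = 0.0408). That call was lost without array 1, 2 or 3 (limma adjusted p = 0.151, 0.129 and 0.116). TUA6, TUB6 and TUB7 had means of -0.13, 0.13 and 0.08 and did not pass the test. A further 3 probes listing several tubulins had a median of 0.00 and none passed.

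Of the microtubule-associated proteins, 2 were measured. AT3G23090, also called WDL3 and belonging to the WAVE-DAMPENED2-LIKE proteins that bind microtubules, had 0.67, 0.75, 0.57 and 0.55 on arrays 1 to 4. All 4 values lay above 0.5. The mean was 0.64 ± 0.09 (SE, n = 4 arrays, limma adjusted p = 0.0102), an increase between those of TRM34 and TRM23, and the call was lost without array 1 (limma adjusted p = 0.0615). SPR1, or SPIRAL1, which keeps growing organs from twisting, was at 0.04 (limma adjusted p = 0.834) and at -0.06 with the arrays centred. Among the organ shape and growth genes 2 were measured and 0 passed the test, AN at 0.20 (limma adjusted p = 0.207) and TCP15 at 0.03 (limma adjusted p = 0.837), with 1 probe of several members past it at 0.48.

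The IQD family, calmodulin-binding proteins that also sit on microtubules and affect organ shape, was measured by 4 genes. IQD19 had -0.61, -0.64, -1.13 and -1.22 on arrays 1 to 4 and fell by 0.90 ± 0.15 (SE, n = 4 arrays, limma adjusted p = 0.0139). Without moderation of the variance IQD19 did not pass (adjusted p = 0.0841). IQD25, IQD22 and IQD20 had means of 0.71, 0.39 and 0.02 and did not pass the test. Without array 3 IQD25 passed it, at 0.92 (limma adjusted p = 0.0375). The median of the 4 was 0.20, against 0.26 for the 7 TRM genes and 0.34 for the 6 TON1 Recruiting Motif genes among them. A further 6 probes listing several IQD genes had a median of 0.35 and none passed. The 6 probes listing several TRM genes had a median of 0.27. A difference between the families was not tested.

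The named genes most like TRM23 over the 4 arrays, by Euclidean distance of their log2 ratios among 5143 genes, were AT5G04000, AT1G56210 and AT4G16970, at distances of 0.20, 0.21 and 0.22 and with means of 0.74, 0.70 and 0.73, of which those of AT5G04000 and AT1G56210 did not pass the test without array 1 (limma adjusted p = 0.0719 and 0.0519). Those most like TRM30 were PDC3, a pyruvate decarboxylase by name, AT5G67640 and AT3G01430, at distances of 0.20, 0.23 and 0.24. PDC3 had -0.53 and -0.16 on arrays 1 and 3 and 0.47 and 0.46 on arrays 2 and 4, the split by channel orientation that TRM30 showed. Likeness over 4 values is a description of these arrays only.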

How the data were processed

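Each deposited value is the log2 ratio between both channels of an array, normalized by the authors after a method that, per the labels, an earlier publication describes. Scanner settings, background correction and normalization steps were not given in the sources used here. A log2 scale follows from the values, which stop at log2 ratios matching a 100-fold limit; upstream centring stays unknown. Arrays 1 and 3 were multiplied by -1, and values above 6.6438 in size were taken as not measured; 0 values of the 7 genes were affected. The 424 empty and 35 control spots among 26933 were not tested. In the platform annotation 5784 gene probes have 1 gene, 7497 several and 13193 none. Probes of a gene were averaged, and features with values on at least 3 arrays were tested against 0 with limma 3.58.1 in R 4.3.3 (lmFit, eBayes, Benjamini-Hochberg over all 25588), tested on simulated data. Orientation was tested as a second coefficient. Percentiles and distances were computed in Python 3.11.15. The members and lists were chosen with earlier results of these data known. Every measured TRM gene is named. From each list all members are named where 4 or fewer were measured, otherwise the 2 highest and 2 lowest. The 3 named genes nearest to the highest and the lowest TRM gene are also named. Array number limits precision. No sequences or coordinates are printed, since the files give no build.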

Additional observations from a re-analysis of the deposited data

Results flagged for a closer look

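TRM23 had 1.05 on array 2, far from its other 3 arrays at 0.69 to 0.75. Without array 2 its mean was 0.72 and still passed the test (limma adjusted p = 0.0289). PSB27 had -0.22 on array 4 and AT1G56210, a gene like TRM23 by choice, had 0.91 on array 2, each far from the other arrays. These are 3 of 41 genes and probes examined, with about 2.05 at the nominal rate of the criterion. AT1G56210 was chosen for its likeness to TRM23 on the same arrays, so the 3 are not independent. Of all genes and probes measured on 4 arrays 5.75% showed such a gap.

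Some genes had the same sign on both arrays of an orientation and the opposite sign on both arrays of the other. The differences, arrays 2 and 4 minus arrays 1 and 3, were 0.75 for TRM30, 0.39 for SPR1, -0.24 for TCP15, 0.84 for PSBW, 0.97 for PSBY, 0.81 for PDC3 and 0.65 for AT3G01430. PDC3 and AT3G01430 were chosen for their likeness to TRM30. In limma's test of this difference 0 of 25588 genes and probes passed, with 1735 at an unadjusted p under 0.05.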

How the results depend on the processing

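Without 1 array in turn, 1 to 3 TRM genes passed the test, and 1818 to 5028 of all genes and probes; the lowest counts of both were without array 1, and there were 2085 and 2793 of all without arrays 2 and 3. Without moderation of the variance there were 1 and 1265, and at an adjusted p under 0.01 there were 1 and 1645. With the 2 arrays of either orientation alone 0 TRM genes passed limma's test, with 3 at an unadjusted p under 0.05 in each, where fewer arrays were fitted. Of all genes and probes 2224 of 25135 passed with apetala3 in channel 1 only, and 869 of 25150 with it in channel 2 only. With the sign turned on all arrays the same 2 genes were lower, by construction. With array weights 6807 passed in all, 3751 higher and 3056 lower, and with centring 3970, 1065 higher and 2905 lower. TRM23 stayed past the threshold in 12 of 14 settings and TRM34 in 9. TRM82, TRM26, TRM21 and TRM30 stayed short of it in all 14, and the sign of TRM30 turned in 2. Each TRM gene's difference from the array medians was also averaged over the arrays. The median of these gene averages was 0.16, and 0.14 to 0.25 over its alternatives, 0.24 without TRM82, an alternative added after seeing the data. Without moderation of the variance SPL, ATA27, SWEET8 and TUA1 were not past the threshold either, with adjusted p of 0.0849, 0.0972, 0.0573 and 0.0869. None of the reversals below was past the threshold. With array weights TRM30 was at -0.017, IQD20 at -0.013, PDC3 at -0.11, AT5G67640 at -0.048 and AT3G01430 at -0.053. With apetala3 in channel 1 only, TRM30 was at -0.23, SPR1 at -0.16, IQD20 at -0.026, PSBW at -0.032, PSBY at -0.13, PDC3 at -0.34, AT5G67640 at -0.21 and AT3G01430 at -0.23. With channel 2 only, TUA6 was at 0.15, TCP15 at -0.085 and EMS1 at -0.021. With centring TUB7 was at -0.022, SPR1 at -0.061, IQD20 at -0.078, TCP15 at -0.067, EMS1 at -0.029, PDC3 at -0.042 and AT3G01430 at -0.0038. Without 1 array, TUB7 ranged from -0.014 to 0.17, TUA6 from -0.28 to 0.033, SPR1 from -0.026 to 0.14, IQD20 from -0.013 to 0.075, TCP15 from -0.026 to 0.099, PDC3 from -0.078 to 0.26, AT5G67640 from -0.0094 to 0.33 and AT3G01430 from -0.065 to 0.26. The cause of these shifts was not tested. Each ratio is already a pair of both genotypes on 1 array, so no further replicate block was fitted.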
